A study of Sus scrofa with 3 samples.

Results

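The genes described here are the tumour necrosis factor (TNF) superfamily of ligands, its receptors, the TNF receptor-associated factors (TRAF) that carry their signal, and genes named for their induction by TNF. Members were chosen by name alone. They are the mRNA genes called TNF, LTA or LTB, or with a name that starts with TNFSF, TNFRSF, TNFAIP or TRAF and a number. This gave 35 of the 22826 mRNA genes, of 34570 genes of all types. By role there were 10 ligands, 12 receptors, 6 TRAF adaptors, 2 TRAF3-interacting proteins and 5 TNF-induced genes. The last role was set by the name TNFAIP alone and so takes in TNFAIP8L2, which is named for its likeness to TNFAIP8. The name rule uses no measured value, but it was set with earlier results of these data known.

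RNA-Seq was made of visceral adipose tissue (VAT), taken from the retroperitoneal depot of male Chinese Wuzhishan miniature pigs. All pigs were some months old and ate a diet high in fat and cholesterol (HFC). The intact pigs (IM) had skin incisions only, the castrated pigs (CM) had both testes removed, and the castrated pigs with testosterone replacement (CMT) were castrated and then injected each week with testosterone propionate into muscle. RNA from the pigs of a group was mixed in equal amounts and sequenced as 1 library, read from one end on an Ion Proton sequencer. The sample labels give 4 to 6 pigs per group, and the methods of the study give 4. The study set these groups side by side to ask how castration, and the return of testosterone after it, alter gene expression in VAT under this diet. With 1 library per group there are no replicates, so no test of a difference between conditions can be made. The intervals given below cover the error of counting reads only, and reads copied by PCR are not independent molecules.

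Ligands of the TNF superfamily are made mostly as trimers anchored in the cell membrane, and many are also released from it. They bind receptors that either carry a death domain, which can start cell death, or recruit TRAF adaptors, which activate NF-kB and stress kinases. In adipose tissue TNF comes largely from macrophages and other immune cells, and it is known to impair insulin signalling and raise lipolysis in adipocytes. TNFAIP3 (A20) is a brake that NF-kB itself induces.

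Levels are given as UQRPKM, the reads of a gene per length, scaled to the library's upper quartile, so they can be compared between genes as well as between libraries. The number of reads behind each value was recovered from the UQRPKM values, and it may be too low by a common factor for some genes. Over all genes the IM, CM and CMT libraries held 16611931, 15561124 and 15106608 recovered reads, of which 14055, 11257 and 11576 lay on the members. A ratio between libraries is given as a log2 ratio of UQRPKM, with an exact Clopper-Pearson 95% interval from the reads. A gene was called higher or lower at a fold of 1.5 or more, which is 0.58 on the log2 scale, with at least 1 UQRPKM in both libraries. Genes with less than 1 UQRPKM in either library were not compared in that pair.

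The tissue label held against adipocyte markers, since ADIPOQ (adiponectin) was at 74928, 69193 and 63873 UQRPKM in IM, CM and CMT. The 6 adipocyte markers with a row were summed at 131389, 122400 and 105490 UQRPKM in IM, CM and CMT. In CMT versus IM all 6 lay below a ratio of 1, with 0 called. Other markers set the libraries further apart. The summed level of 8 liver genes was 6924 UQRPKM in CM, against 17.9 in IM and 22.4 in CMT. The summed level of 8 skeletal muscle genes was 69.1, 56.5 and 5485 UQRPKM, and CKM of that list was at 0 in all libraries. The neutrophil list stood at 504, 4883 and 964 UQRPKM, through S100A8, S100A9 and S100A12, while CXCR2 was between 4.35 and 5.08 UQRPKM and CSF3R was listed at 0 throughout. The mesothelial list stood at 40.9, 75.9 and 173 UQRPKM. In at least 1 comparison ALB, TF, TTR, APOC3, FETUIN, FGA and FGB of the liver list, ACTA1, MYH1, MYH7, TNNC1, TNNT1, MYL1 and ATP2A1 of the muscle list, and MSLN, UPK3B and WT1 of the mesothelial list were called with an interval leaving out 0. LEP (leptin) of the adipocyte list was at 167, 502 and 156 UQRPKM. Thus the CM library held liver RNA and S100 RNA, and the CMT library muscle and mesothelial RNA, that the IM library did not hold at those levels. To a lesser degree S100A8, S100A9 and S100A12 were also called higher in CMT versus IM (1.10, 1.42 and 0.74). MSLN and UPK3B were likewise called higher in CM versus IM (1.25 and 2.47), and all of these intervals left out 0. The part of these differences in any result below was not tested. In a pooled tissue sample, fewer cells of a type cannot be told apart from less RNA per cell.

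**Figure D1:**
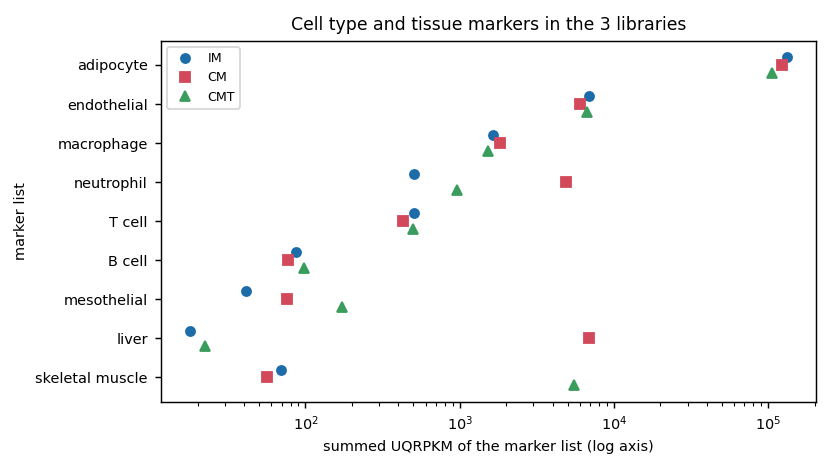
Summed UQRPKM of each marker list (horizontal, log axis) for 9 cell type or tissue lists (vertical), with 1 symbol per library (circle IM, square CM, triangle CMT). The liver list stands at 6924 UQRPKM in CM against 17.9 in IM, and the skeletal muscle list at 5485 UQRPKM in CMT against 69.1 in IM, while the macrophage, T cell, B cell and endothelial lists lie close together.

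Of the 35 members, 29 were above 0 in all 3 libraries, and 30, 29 and 32 were above 0 in IM, CM and CMT. At or above 1 UQRPKM there were 30, 27 and 30. TNFRSF1B, the TNF receptor found mainly on immune and endothelial cells, and TNFSF12, the ligand TWEAK, were listed at 0 in every library. A listing at 0 does not show absence here, because 6 of 66 ribosomal protein genes, which every cell uses, were also listed at 0 in every library. The level of those 2 members is therefore not known from these data. Of all members, 10 had fewer than 30 reads over the 3 libraries together.

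Receptors carried the most RNA of the family. Their summed level was 1783, 1358 and 1259 UQRPKM in IM, CM and CMT, against 330, 365 and 365 for the ligands, 391, 371 and 378 for the TRAF adaptors and 764, 705 and 753 for the TNF-induced genes. Shares within a role are given by reads, which unlike UQRPKM are not scaled by gene length. Within the receptors, TNFRSF1A held 51.2%, 49.99% and 48.3% of the reads in IM, CM and CMT. Within the ligands, TNFSF10 held 52.7%, 63.0% and 65.7% of the reads, and TNF 18.1%, 8.65% and 8.92%. The receptor sum was thus highest in IM, and TNF took a larger share of ligand reads in IM than in either castrated group.

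**Figure D2:**
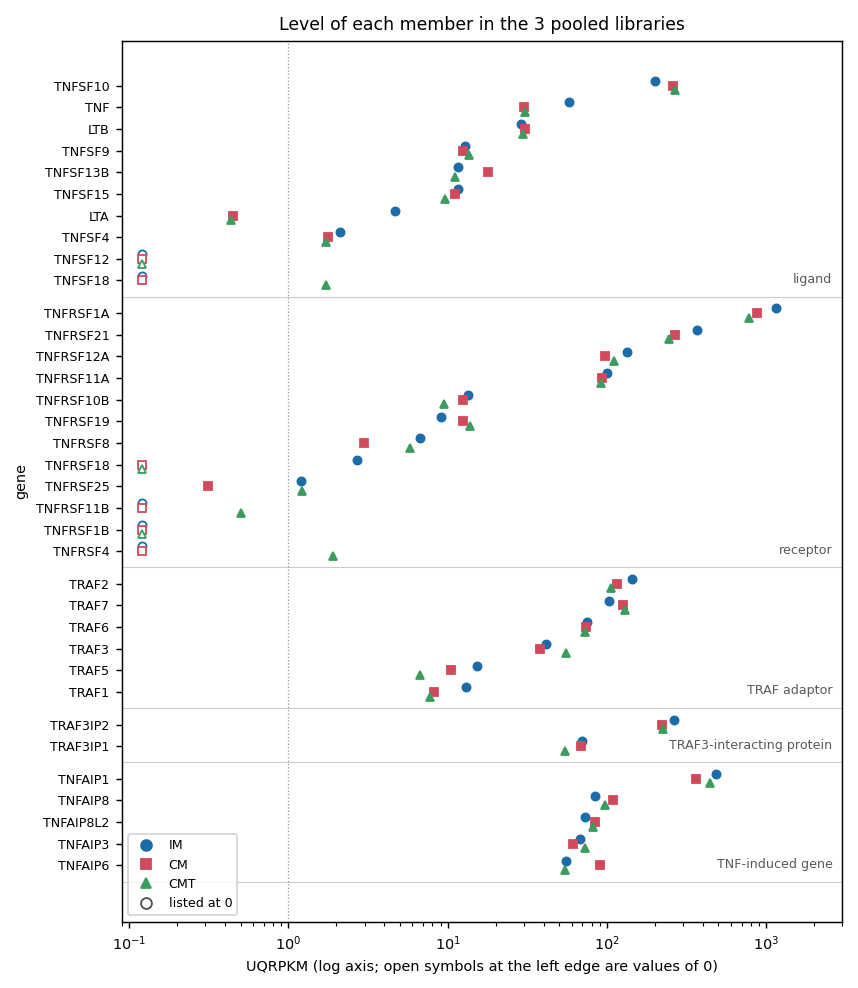
UQRPKM of each of the 35 members (horizontal, log axis) in IM (circle), CM (square) and CMT (triangle), grouped by role. Open symbols at the left edge are values listed at 0, and the dotted line marks 1 UQRPKM. TNFRSF1A is the highest member at 779 to 1149 UQRPKM. The wide log axis makes differences between the 3 libraries look small.

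TNF, the founding cytokine of the family, was at 58.0 UQRPKM in IM (144 reads, exact Poisson 95% interval 48.9 to 68.3), 30.01 in CM (71 reads, 23.4 to 37.9) and, in CMT, 30.4 (74 reads, 23.9 to 38.2). It was the intact library that stood high, and both castrated libraries lay together well below it. The log2 ratio was -0.95 in CM versus IM (interval -1.38 to -0.53) and -0.93 in CMT versus IM (-1.36 to -0.52). It was 0.02 in CMT versus CM, with an interval of -0.47 to 0.51. The CM and CMT comparisons with IM share the IM library, so they are not independent of each other.

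LTB encodes lymphotoxin beta, which anchors lymphotoxin to the membrane and signals for the build-up of lymphoid tissue. It was at 28.6 UQRPKM in IM (92 reads), 30.7 in CM (94 reads) and, in CMT, 29.5 (93 reads). These levels lay within each other's counting intervals, with a log2 ratio of 0.10 in CM versus IM (-0.33 to 0.53) and -0.06 in CMT versus CM (-0.49 to 0.37). LTA, lymphotoxin alpha, had 11 reads in IM (4.68 UQRPKM), 1 read in CM (0.45 UQRPKM) and 1 read in CMT (0.43 UQRPKM). It too was high in the intact library only, but its values in CM and CMT were under 1 UQRPKM, so it was not compared under the call rule. Its log2 ratio rests on 1 read in each castrated library and was -3.39 in CM versus IM (-8.82 to -0.61) and -3.43 in CMT versus IM (-8.86 to -0.65).

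In the RefSeq gene table for Sscrofa 11.1, LTA, TNF and LTB follow each other along the chromosome. The ratio of TNF to LTB reads does not depend on how the libraries were scaled. There were 1.57, 0.755 and 0.796 TNF reads per LTB read in IM, CM and CMT. The log2 change in that ratio was -1.05 for CM over IM (exact conditional 95% interval -1.66 to -0.44), 0.07 for CMT over CM (-0.58 to 0.73) and -0.97 for CMT over IM (-1.59 to -0.37). In the same table LTB overlaps LST1, which had 58, 88 and 78 reads in IM, CM and CMT, and whether the counting used strand is not given in the sources used here.

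Of the macrophage markers, 8 of 9 listed genes were above 0, and CD163 was listed at 0 throughout. Their summed level was 1643, 1828 and 1525 UQRPKM in IM, CM and CMT, and 6 of the 8 were highest in CM. Of those 6, CD14 and TYROBP had log2 ratios of 0.02 and 0.09 in CM versus IM, with intervals that took in 0. In that comparison 3 of the 8 were called higher, where 8.38% of all genes were. EMR1 was at 45.6, 93.6 and 30.6 UQRPKM, LOC100520753, which the study treats as CD68, at 17.2, 42.9 and 22.2, and MARCO, a scavenger receptor, at 16.8, 37.9 and 10.7. These were called higher in CM versus IM and lower in CMT versus CM, with intervals leaving out 0. CSF1R, the receptor of CSF1, was the 1 macrophage marker highest in IM, at 285, 246 and 221 UQRPKM.

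T cell markers were summed at 508, 429 and 498 UQRPKM over 9 genes, of which 5 were highest in IM, 2 in CM and 2 in CMT. CD5 had an order like that of TNF, at 40.1, 29.3 and 28.9 UQRPKM, with a log2 ratio of -0.45 in CM versus IM (-0.89 to -0.02) and -0.47 in CMT versus IM (-0.91 to -0.05). The list as a whole did not follow it. CD2, CD3D, CD8A and ZAP70 had intervals taking in 0 in every comparison, with CD8A at 80.2, 84.1 and 82.1 UQRPKM. CD4 was at 11.7, 8.02 and 5.95 UQRPKM and was called lower in CMT versus IM (-0.97, -1.67 to -0.30). LCK, a kinase of the T cell receptor pathway, was at 67.1, 30.9 and 56.1 UQRPKM, called lower in CM versus IM and higher in CMT versus CM. The CD3 chains differed among themselves. CD3E was called higher in CMT versus CM (0.75, 0.36 to 1.15) and CD3G in CMT versus IM (0.64, 0.13 to 1.16). The B cell list was summed at 87.3, 77.0 and 98.5 UQRPKM over 7 genes. Of these CD79B was called lower in CM versus IM (-1.22, -2.15 to -0.34), and CR2 higher in CMT against both other libraries. The part of these cells in the level of TNF was not tested.

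TNFSF10 (TRAIL), which can start cell death through death receptors, was the highest ligand at 201 UQRPKM in IM (419 reads), 260 in CM (517 reads) and, in CMT, 267 (545 reads). It was lowest in the intact library, where TNF was highest. Its log2 ratio was 0.37 in CM versus IM (0.18 to 0.56) and 0.41 in CMT versus IM (0.22 to 0.60), under the fold limit with intervals that leave out 0. In CMT versus CM the log2 ratio was 0.04 (-0.14 to 0.21).

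TNFSF13B (BAFF), a survival factor of B cells, was at 11.5 UQRPKM in IM (36 reads), 17.8 in CM (53 reads) and, in CMT, 11.1 (34 reads). CM stood above both other libraries, and IM and CMT lay together. It was called higher in CM versus IM, with a log2 ratio of 0.63 whose interval, -0.01 to 1.28, takes in 0. It was called lower in CMT versus CM at -0.68 (-1.35 to -0.03). The B cell list did not have that order, since its sum was lowest in CM.

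Of the other ligands, TNFSF9 (the 4-1BB ligand) was between 12.5 and 13.6 UQRPKM and TNFSF15 (TL1A) between 9.64 and 11.5. TNFSF4 (the OX40 ligand) had 4 or 5 reads in each library. TNFSF18 (the GITR ligand) had 1 read, in CMT, and 3 reads would have been 5.06 UQRPKM in IM and 5.31 in CM. TNFSF9, TNFSF15 and TNFSF4 were not called in any comparison, and TNFSF18 could not be compared.

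TNFRSF1A, the death domain receptor for TNF and lymphotoxin alpha that most cell types carry, was the highest member. It was at 1149 UQRPKM in IM (3471 reads), 871 in CM (2509 reads) and, in CMT, 779 (2308 reads), which put it above about 93.0% to 94.9% of the mRNA genes above 0. The levels stood in the order IM, CM, CMT from high to low, and the exact Poisson intervals of 1111 to 1188, 837 to 906 and 748 to 812 UQRPKM do not overlap. Its log2 ratio was -0.40 for CM over IM (-0.47 to -0.32), -0.16 for CMT over CM (-0.24 to -0.08) and -0.56 for CMT over IM (-0.64 to -0.48). All were under the fold limit, and the last became -0.48 when the libraries were scaled by their median ratio. In the RefSeq table TNFRSF1A overlaps PLEKHG6, which had 10, 18 and 2 reads.

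TNFRSF21 (death receptor 6) was the second receptor by level, at 369 UQRPKM in IM (2076 reads), 268 in CM (1437 reads) and, in CMT, 244 (1346 reads). It had the same order as TNFRSF1A. Its log2 ratio was -0.46 for CM over IM (-0.56 to -0.36), -0.13 for CMT over CM (-0.24 to -0.03) and -0.60 for CMT over IM (-0.70 to -0.50). Only the last of these was a call, at a fold of 1.51, and it was lost under each of the 3 other scalings of the libraries.

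TNFRSF12A (Fn14), the receptor of TWEAK, was at 133 UQRPKM in IM (197 reads), 97.5 in CM (138 reads) and, in CMT, 111 (162 reads). IM was again the highest, with a log2 ratio of -0.44 in CM versus IM (-0.77 to -0.12) and -0.25 in CMT versus IM (-0.56 to 0.05). TNFRSF19 (TROY), an orphan receptor of the family, went the other way. It was at 9.03 UQRPKM in IM (67 reads), 12.4 in CM (88 reads) and, in CMT, 13.8 (100 reads). It was called higher in CMT versus IM at a log2 ratio of 0.61 (0.15 to 1.08), a fold of 1.52 that was no longer a call with a pseudocount of 1. In CM versus IM it was 0.46 (-0.01 to 0.94).

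TNFRSF11A (RANK), known for osteoclast formation, was between 91.6 and 99.9 UQRPKM, with log2 ratios whose intervals all took in 0. TNFRSF10B, a TRAIL receptor with a death domain, was between 9.44 and 13.5 UQRPKM and was not called either. The rest of the receptors were near the limit of detection. TNFRSF8 had 7, 3 and 6 reads, TNFRSF25 had 4, 1 and 4, TNFRSF18 had 2, 0 and 0, TNFRSF4 had 0, 0 and 3, and TNFRSF11B (osteoprotegerin) had 0, 0 and 1 in IM, CM and CMT. These receptors are known mainly from activated lymphocytes, apart from osteoprotegerin, which binds RANK ligand. TNFRSF8 was called lower in CM versus IM (log2 ratio -1.15, -3.74 to 0.98) and higher in CMT versus CM (0.96, -1.27 to 3.59), both on these few reads. RefSeq lists the names TNFRSF8 and TNFRSF4 also as synonyms of TNFSF8 and TNFSF4, so which gene those rows counted is uncertain. A second row, LOC100737399, has the gene number of TNFRSF8 in RefSeq and held 2, 0 and 3 reads, so the TNFRSF8 reads behind its calls may be split.

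**Figure D3:**
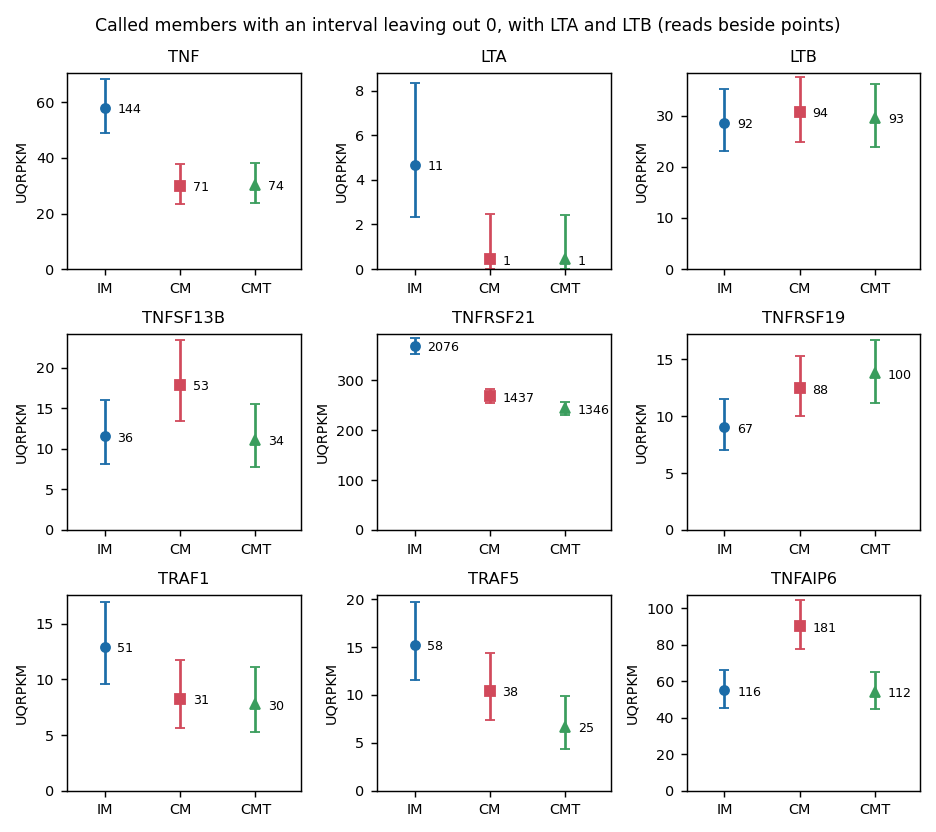
UQRPKM (vertical, linear axis from 0) of 9 members in the IM, CM and CMT libraries, with exact Poisson 95% intervals that cover counting error only and the number of reads beside each point. Shown are the members that were called with an interval leaving out 0, together with LTA and LTB. TNF lies at 58.0 UQRPKM in IM and 30.01 and 30.4 in CM and CMT, LTB lies between 28.6 and 30.7 in all, and TNFAIP6 and TNFSF13B are highest in CM.

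The TRAF adaptors, which link receptor tails to ubiquitin signalling, were all above 0 in every library. TRAF2, the main adaptor of TNF receptor complexes, was at 144 UQRPKM in IM (557 reads), 115 in CM (426 reads) and, in CMT, 107 (404 reads). It was highest in the intact library, with a log2 ratio of -0.32 in CM versus IM (-0.50 to -0.13) and -0.43 in CMT versus IM (-0.62 to -0.25), under the fold limit. TRAF1, a TRAF without a RING domain that NF-kB induces, was at 12.9 UQRPKM in IM (51 reads), 8.24 in CM (31 reads) and, in CMT, 7.76 (30 reads). It was called lower in CM versus IM (-0.65, -1.34 to 0.02) and in CMT versus IM (-0.74, -1.44 to -0.06). TRAF5 was at 15.2 UQRPKM in IM (58 reads), 10.5 in CM (38 reads) and, in CMT, 6.69 (25 reads). TRAF5 had the same order as TNFRSF1A, with a log2 ratio of -0.54 for CM over IM (-1.17 to 0.07), -0.64 for CMT over CM (-1.43 to 0.12) and -1.18 for CMT over IM (-1.92 to -0.48).

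TRAF3, which restrains the non-canonical NF-kB pathway, was highest in CMT. It was at 41.5 UQRPKM in IM (179 reads), 37.7 in CM (155 reads) and, in CMT, 55.3 (234 reads). Its log2 ratio was -0.14 for CM over IM (-0.46 to 0.18), 0.55 for CMT over CM (0.26 to 0.86) and 0.42 for CMT over IM (0.13 to 0.70), all under the fold limit. TRAF6, which serves the Toll-like and interleukin 1 receptors, was at 74.6 UQRPKM in IM (215 reads), 73.2 in CM (201 reads) and, in CMT, 73.0 (206 reads). Those levels differed by less than the counting error. TRAF7, the member with WD40 repeats, was at 102 UQRPKM in IM (394 reads), 126 in CM (462 reads) and, in CMT, 129 (487 reads), with log2 ratios of 0.30 (0.10 to 0.50) and 0.34 (0.14 to 0.53) against IM. No row carried the name TRAF4.

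Of the TRAF3-interacting proteins, TRAF3IP2 (Act1), the adaptor of the interleukin 17 receptor, was at 264, 222 and 224 UQRPKM in IM, CM and CMT (1085, 872 and 904 reads). It was highest in IM, with a log2 ratio of -0.25 in CM versus IM (-0.38 to -0.12). TRAF3IP1, a protein of cilia, was at 69.7, 69.0 and 54.1 UQRPKM (323, 305 and 246 reads). It was lowest in CMT, at -0.35 in CMT versus CM (-0.60 to -0.10). A second row that RefSeq also assigns to TRAF3IP1 had 97, 87 and 63 reads in IM, CM and CMT, so its reads may be split. Neither gene was called in any comparison.

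TNFAIP6 (TSG-6), a secreted protein that binds hyaluronan and is made in inflamed tissue, was the TNF-induced gene with the largest ratios between the libraries. It was at 55.1 UQRPKM in IM (116 reads, exact Poisson interval 45.6 to 66.1), 90.3 in CM (181 reads, 77.6 to 104) and, in CMT, 54.3 (112 reads, 44.7 to 65.4). CM stood above the intervals of both other libraries, and IM and CMT lay together, the same order as TNFSF13B and not that of TNF. The log2 ratio was 0.71 for CM over IM (0.37 to 1.06), -0.73 for CMT over CM (-1.09 to -0.38) and -0.02 for CMT over IM (-0.41 to 0.37). The liver and S100 genes named above are also highest in the CM library.

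TNFAIP3 (A20), which removes ubiquitin chains and so dampens NF-kB signalling, was at 68.0 UQRPKM in IM (464 reads), 61.2 in CM (398 reads) and, in CMT, 72.9 (487 reads). It was lowest in CM, with a log2 ratio of -0.15 in CM versus IM (-0.35 to 0.04) and 0.25 in CMT versus CM (0.06 to 0.45). TNFAIP1, an adaptor of cullin ubiquitin ligases, was the highest gene of this role at 484 UQRPKM in IM (2653 reads), 360 in CM (1883 reads) and, in CMT, 446 (2394 reads). It too was lowest in CM, at -0.43 in CM versus IM (-0.51 to -0.34) and 0.31 in CMT versus CM (0.22 to 0.39).

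TNFAIP8, known as an inhibitor of apoptosis, was at 83.9 UQRPKM in IM (252 reads), 109 in CM (313 reads) and, in CMT, 97.5 (287 reads), with a log2 ratio of 0.38 in CM versus IM (0.14 to 0.63). Its relative TNFAIP8L2 (TIPE2), a restraint on innate immune cells, was at 72.7 UQRPKM in IM (139 reads), 83.4 in CM (152 reads) and, in CMT, 82.1 (154 reads). The intervals of its log2 ratios took in 0. In RefSeq TNFAIP8L2 overlaps LYSMD1, which had 262, 234 and 211 reads. The genes of this role therefore did not share an order across the libraries.

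In CM versus IM, 27 members could be compared and 8 could not. TNFSF13B and TNFAIP6 were called higher, which is 7.41% of the members compared against 8.38% of all 14123 mRNA genes compared. TNF, TRAF1 and TNFRSF8 were called lower, 11.1% against 10.4% of all genes. With an interval that also leaves out 0 there remained TNF and TNFAIP6, 7.41% against 11.7% of all genes. The median log2 ratio of the members was -0.11, beside -0.06 over all genes, with 8 members above and 19 below a ratio of 1, where 56.8% of all genes lay below 1. The share called was near that of all genes, and no shift of the family as a whole is read from it. By role the median log2 ratio was -0.40 over 7 receptors, -0.23 over 6 TRAF adaptors, -0.04 over 7 ligands and 0.20 over 5 TNF-induced genes. The last of these medians is the ratio of TNFAIP8L2 itself.

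In CMT versus CM, 27 members could be compared. TNFRSF8 alone was called higher, 3.70% against 9.53% of all 14098 genes compared. TNFSF13B, TRAF5 and TNFAIP6 were called lower, 11.1% against 9.97% of all genes. TNFSF13B and TNFAIP6 also had an interval leaving out 0, 7.41% against 12.4% of all genes. The median log2 ratio was -0.02 both for the members and for all genes.

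In CMT versus IM, 28 members could be compared. TNFRSF19 was called higher, 3.57% against 8.81% of all 14151 genes compared. TNF, TRAF1, TRAF5 and TNFRSF21 were called lower, 14.3% against 11.9% of all genes. All of these 5 had an interval leaving out 0, 17.9% against 13.5% of all genes. The median log2 ratio of the members was -0.12, beside -0.08 over all genes. Against IM, TNF was at -0.95 in CM and -0.93 in CMT on the log2 scale. TNFSF13B was at 0.63 in CM and -0.05 in CMT (-0.77 to 0.66), and TNFAIP6 at 0.71 and -0.02. These comparisons share libraries, so their calls are given side by side and are not counted against each other.

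**Figure D4:**
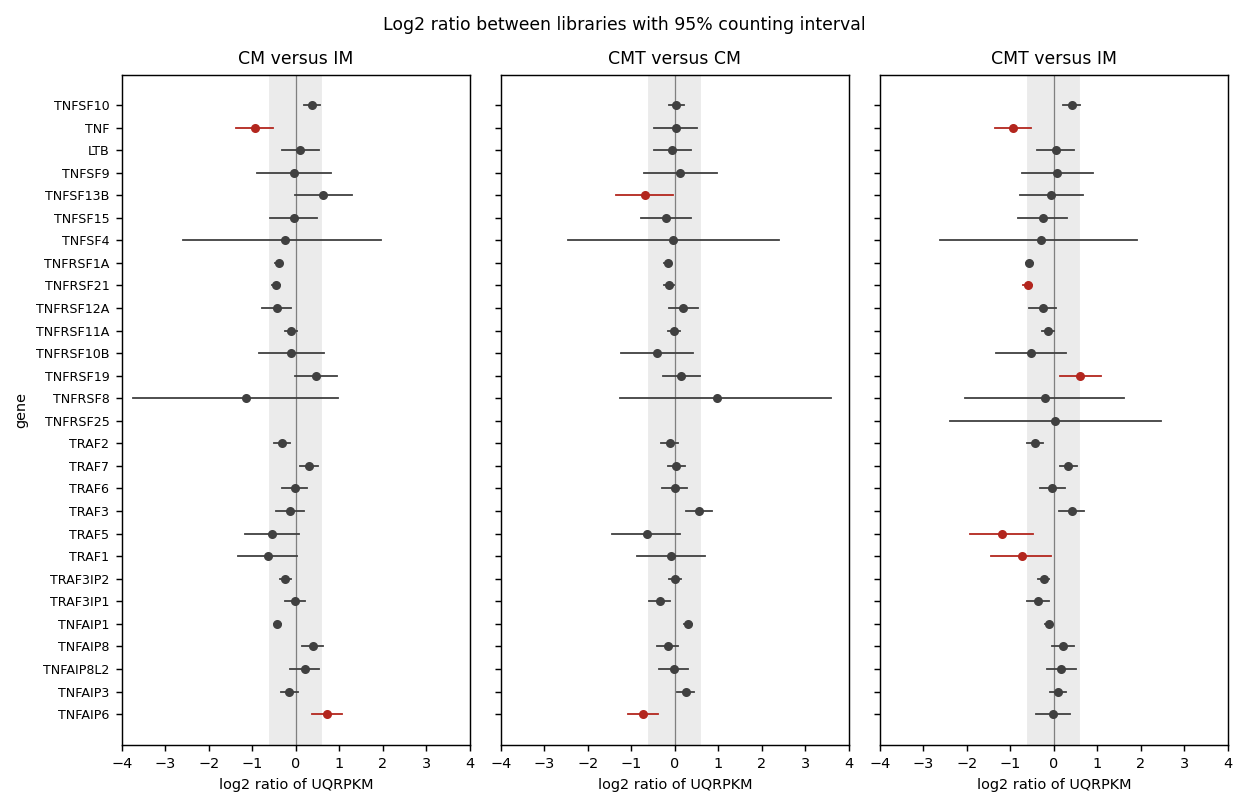
Log2 ratio of UQRPKM (horizontal) with its exact 95% counting interval for each member compared (vertical), for CM over IM, CMT over CM and CMT over IM. The grey band marks folds under 1.5, and red marks a called member whose interval leaves out 0. TNF lies left of the band in both comparisons with IM and at 0.02 in CMT versus CM, and TNFAIP6 changes side between CM versus IM (0.71) and CMT versus CM (-0.73).

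**Figure D5:**
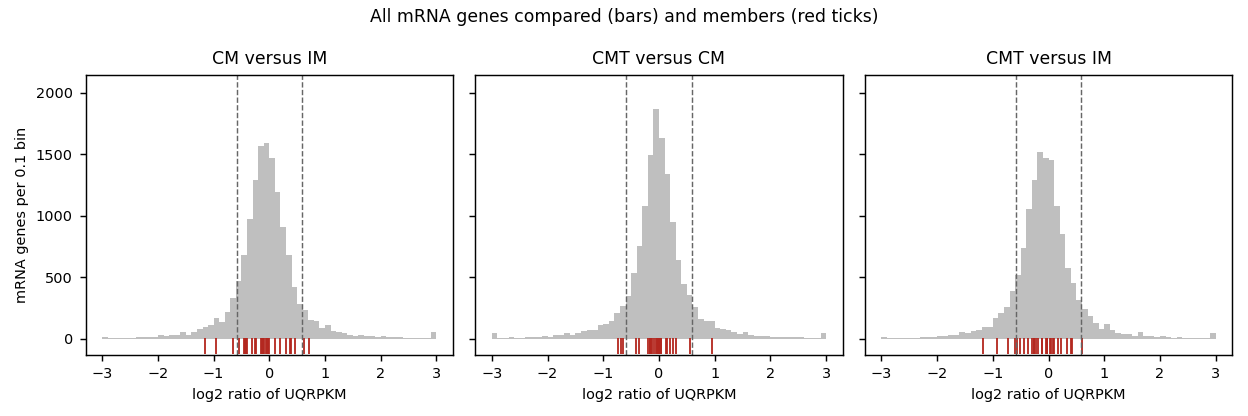
Number of mRNA genes (vertical) by log2 ratio of UQRPKM in bins of 0.1 (horizontal), with values beyond the axis gathered in its end bins, for the 3 comparisons. Red ticks below are the members, and dashed lines mark a fold of 1.5. The ticks spread over the middle of each distribution, with medians of -0.11, -0.02 and -0.12 beside -0.06, -0.02 and -0.08 for all genes.

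Receptors and ligands of the family that the name rule leaves out were followed as a list of 14, of which 12 had a row. In CM versus IM, 10 of them could be compared, 0 were called higher and 2 lower, and only RELT had an interval leaving out 0. RELT, a TNF receptor family member of lymphoid tissue, had 40, 20 and 13 reads in IM, CM and CMT, with a log2 ratio of -0.93 in CM versus IM (-1.78 to -0.12) and -1.59 in CMT versus IM (-2.62 to -0.66). FAS, the death receptor, was at 60.4, 60.1 and 59.0 UQRPKM, and LTBR, the receptor of LTB, at 649, 698 and 571 UQRPKM. CD40LG, a ligand of activated T cells, had 4, 3 and 12 reads and was called higher in CMT versus CM (1.96, 0.07 to 4.43). Of the same 10 genes, 1 was called higher and 3 lower in CMT versus CM, and 1 higher and 2 lower in CMT versus IM. The list medians were -0.04 for CM over IM, -0.13 for CMT over CM and -0.12 for CMT over IM, and the shares and medians of all genes are those given with the members above.

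Downstream of the receptors, 16 of 20 listed death domain proteins and kinases could be compared in CM versus IM. Of these CASP10, a caspase of the death receptor complex, was called lower, from 57 reads in IM to 31 in CM (-0.81, -1.49 to -0.15), and 0 were called higher. In CMT versus IM, MAP3K7 (TAK1) was called lower, from 91 to 55 reads (-0.70, -1.21 to -0.20), and in CMT versus CM none of the 16 was called. The list medians were -0.09, -0.02 and -0.14 for CM over IM, CMT over CM and CMT over IM. In those comparisons, in that order, 8.38%, 9.53% and 8.81% of all genes were called higher, and 10.4%, 9.97% and 11.9% lower. TRADD was listed at 0 in all libraries.

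Over the NF-kB core, 12 of 14 genes could be compared and the median log2 ratio was -0.30 for CM over IM, 0.11 for CMT over CM and -0.27 for CMT over IM, against -0.06, -0.02 and -0.08 over all genes. In CM versus IM 9 of the 12 lay below a ratio of 1, beside 56.8% of all genes, with 1 called lower and 0 higher. In CMT versus CM 1 was called higher and 0 lower, and in CMT versus IM 0 were called. In these comparisons, in the same order, 8.38%, 9.53% and 8.81% of all genes were called higher, and 10.4%, 9.97% and 11.9% lower. RELA, the main transactivating subunit, was at 744, 590 and 556 UQRPKM in IM, CM and CMT, and NFKBIA, the inhibitor that NF-kB induces, at 1574, 1276 and 1545 UQRPKM. Only IKBKE was called with an interval leaving out 0, lower in CM versus IM on 30 and 11 reads (-1.38, -2.52 to -0.34). RELB and TBK1 were listed at 0 throughout. Of 12 brakes and ubiquitin editors with a row, SHARPIN, of the linear ubiquitin ligase, was the only one called, lower in CMT versus IM (-0.64, -1.02 to -0.27). The list medians there were -0.06, -0.06 and -0.15 for CM over IM, CMT over CM and CMT over IM.

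Genes known to be induced by TNF and NF-kB gave no common direction in CM versus IM. Of 18 listed, 13 could be compared in CM versus IM, with 7 above and 6 below a ratio of 1 and a median log2 ratio of 0.16. Of the 13, 1 was called higher and 1 lower, where 8.38% of all genes were called higher and 10.4% lower. BCL2A1, an inhibitor of apoptosis, was at 24.8, 44.2 and 51.4 UQRPKM in IM, CM and CMT, and was called higher against IM in CM (0.83, 0.19 to 1.499) and CMT (1.05, 0.43 to 1.70). MMP9, a gelatinase, was at 16.9, 5.81 and 12.5 UQRPKM, lower in CM versus IM (-1.54, -2.37 to -0.77) and higher in CMT versus CM (1.10, 0.29 to 1.97). VCAM1, an adhesion molecule of endothelium and mesothelium, was at 410, 524 and 662 UQRPKM and was called higher in CMT versus IM (0.69, 0.60 to 0.79).

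JUNB, an immediate early gene, was at 207, 180 and 97.8 UQRPKM in IM, CM and CMT and was called lower in CMT versus CM (-0.88, -1.10 to -0.66) and against IM (-1.08, -1.30 to -0.87). IER3, another immediate early gene, was called lower in CMT versus CM (-0.84, -1.26 to -0.42), and CSF1, the growth factor of macrophages, lower in CMT versus IM (-0.61, -0.97 to -0.27). In CMT versus CM 14 targets could be compared, with 1 called higher, 2 lower and a median of -0.12. Of the 14, 4 lay above and 10 below a ratio of 1, where 52.7% of all genes lay below 1. There 9.53% of all genes were called higher and 9.97% lower. In CMT versus IM 13 could be compared, with 2 called higher, 2 lower and a median of -0.25, where 8.81% of all genes were called higher and 11.9% lower. Of these 13, 5 lay above and 8 below a ratio of 1, where 58.0% of all genes lay below 1. CCL2, a chemokine that attracts monocytes, was at 189, 216 and 159 UQRPKM and was not called.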

How the data were processed

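Visceral adipose RNA of IM, CM and CMT pigs was sequenced as 1 pooled library per group, and groups were taken from the sample titles. The authors removed adaptors and low-quality reads and mapped the rest to Sscrofa 10.2 with MapSplice. They deposited RPKM values that use the library's upper quartile in place of total reads (UQRPKM). The counting tool, annotation and use of strand are not given in the sources used here.

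Whole reads were recovered as value × upper quartile × length / 100000, with upper quartiles of 149, 142 and 146, for 100% of the 20838 genes above 0. In a check on 2078 genes, 8.23% came out low by a common factor and 0 were otherwise wrong. Calls followed the study's limits of 1.5-fold and 1 UQRPKM, without its test. Clopper-Pearson and Poisson intervals were computed with scipy 1.17.1 in Python 3.11.15, and the exact test was tested on simulated data. Names and neighbours came from RefSeq (Sscrofa 11.1), in which 34 of the 35 members matched a symbol. The spans of 8 members overlap a protein-coding gene there.

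Members and gene lists were chosen with earlier results of these data known. Values in all libraries were given for members called with an interval leaving out 0, for TNF, LTA, LTB, TNFRSF1A, TNFRSF1B, the TRAF genes and TNFAIP3, and for the 3 highest ligands, receptors, TRAF adaptors and TNF-induced genes. Other members are given by range or reads, and genes of other lists are named where called with such an interval. TRAF3IP1, TRAF3IP2, FAS, LTBR, RELA, NFKBIA, CCL2, PLEKHG6, LST1, LYSMD1, ADIPOQ, CXCR2, CSF1R, CD2, CD3D, CD5, CD8A and ZAP70 were chosen for printing after their values were seen. The same holds for CD14, TYROBP and PLEKHG5.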

Additional observations from a re-analysis of the deposited data

How the results depend on the processing

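With the fold limit raised to 2, the members called came to 1 (TNFRSF8) for CM over IM, 0 for CMT over CM and 1 (TRAF5) for CMT over IM, by construction of the limit. When an exact binomial test on recovered reads with Benjamini-Hochberg adjustment over all genes was added, 2 remained in CM versus IM (TNF and TNFAIP6) and 1 in CMT versus CM (TNFAIP6). In CMT versus IM it left TNF, TNFRSF19, TNFRSF21 and TRAF5. That test compares libraries, not conditions. Under rescaling to equal total value, by the median ratio, or to the total without the 155 genes that were 10-fold higher in 1 library (an alternative chosen after seeing the data), TNFRSF21 was no longer called in CMT versus IM, and the calls in the other comparisons were those of the main rule. A pseudocount of 1 removed TRAF5 from the calls of CMT versus CM, and TNFRSF19 from those of CMT versus IM. With no filter on low values LTA was also called lower against IM in both castrated libraries. TNFRSF25 was then called lower in CM versus IM and higher in CMT versus CM. It had 4, 1 and 4 reads in IM, CM and CMT, and in RefSeq it overlaps PLEKHG5, which had 277, 83 and 130. A minimum of 30 reads removed TNFRSF8. Of 328 log2 ratios of members under alternatives, 0 changed sign as a call and 1 moved beyond its counting interval. The median of the members ranged from -0.14 to -0.04 for CM over IM, from -0.02 to 0.00 for CMT over CM and from -0.13 to -0.04 for CMT over IM. No paired analysis was possible because each group has 1 library. Depth limits the 10 members with fewer than 30 reads, and differences between pigs cannot be measured in pools.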

Other observations

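Some genes of the family appear in the files under a LOC identifier and so fall outside the name rule. After the values had been seen, 8 such rows were matched to a family symbol through RefSeq gene numbers, 6 of them for symbols with no row of their own. TNFAIP8L3, a lipid transfer protein related to TNFAIP8, was at 25.2 UQRPKM in IM (69 reads), 38.0 in CM (99 reads) and, in CMT, 56.3 (151 reads). It stood in the order IM, CM, CMT, with a log2 ratio of 0.59 in CM versus IM (exact 95% counting interval 0.13 to 1.06), 0.57 in CMT versus CM (0.19 to 0.95) and 1.16 in CMT versus IM (0.74 to 1.59). The mesothelial list had that order too, at 40.9, 75.9 and 173 UQRPKM, and its part in this value was not tested.

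TRAF4, the TRAF known from epithelial junctions, had 26, 30 and 16 reads in IM, CM and CMT, with a log2 ratio of -0.95 in CMT versus CM (-1.92 to -0.03). TNFSF14 (LIGHT), a ligand of LTBR, had 13, 4 and 9 reads, and the log2 ratio in CM versus IM was -1.63 (-3.70 to 0.06). TNFRSF9 (4-1BB) had 0, 2 and 7 reads, TNFRSF17 (BCMA) 1, 0 and 3, and TNFSF11 (RANK ligand) 0, 0 and 1. With these few reads the order of the libraries is not established for any of them.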
